A study of Mus musculus with 50 samples.

Results

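The fatty acid binding proteins are small cytosolic carriers of fatty acids, and 6 of their genes, Fabp1, Fabp2, Fabp3, Fabp4, Fabp5 and Fabp7, were followed across the livers of pregnant mice and of their fetuses. The genes were selected by name, with earlier results of these data known. Each was read from the transcript cluster annotated with its symbol, the brightest where there were several. They are 6 of the 30743 genes tested.

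RNA from 50 livers of the outbred mouse strain CD-1 was measured at gestational day 17.5 on Affymetrix whole-transcript arrays, 1 array per liver. Pregnant mice had been gavaged each day from embryonic day 1.5 to 17.5, and both the dams' livers and livers of fetuses labelled as female were collected. The exposed groups are called PFOA1 and PFOA5 (perfluorooctanoic acid at 1 and 5 mg/kg/day) and GenX2 and GenX10 (hexafluoropropylene oxide dimer acid at 2 and 10 mg/kg/day), and the controls of both tissues received vehicle. Each group held 5 arrays, except fetal PFOA5 with 6 and fetal GenX10 with 4. Both are perfluorinated carboxylic acids, PFOA with an unbranched carbon chain and GenX with a branched chain that holds an ether oxygen. Their doses were not matched, so values under the compounds are set side by side and not compared. No animal carried an engineered allele, as far as the labels say. A fetal liver came from 1 fetus of a litter, per the labels, and fetal liver at this stage also makes blood, so its RNA is that of a mixture of cells.

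Fatty acids entering a cell are bound by these carriers, which hold the lipid inside a barrel of beta strands and pass it to membranes, to enzymes or to nuclear receptors. Fabp1 is the abundant form of hepatocytes and is also made by enterocytes, Fabp2 is the intestinal form, Fabp3 that of heart and skeletal muscle, Fabp4 that of adipocytes and macrophages, Fabp5 that of skin with a wide distribution beyond it, and Fabp7 that of brain. Several are targets of peroxisome proliferator-activated receptors (PPARs), and PPAR alpha, the form of hepatocytes, is activated by fatty acids and by perfluorinated acids such as PFOA.

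Levels are log2 signals, and a change is a log2 difference ± standard error (SE), exposed minus control. Calls rest on limma, a linear model fitted to every gene, and need a p under 0.05 after Benjamini-Hochberg adjustment over all of them. The 95th percentile of the negative control features, between 7.375 and 8.18 over the arrays, served as the background. A gene at or below it on every array of a group is said to be not well above background there. The words "at least" before a fold mean that the arrays of such a group were raised to that percentile. Arrays of the other group were left unchanged. Precision is limited by how many arrays a group has. The p-values weigh a difference of means against the spread between livers within groups, estimated over all groups of a fit. For 2 fetal arrays, PFOA5 replicate 6 and GenX2 replicate 5, the source name and the title disagree on the group. Another 2, control replicate 3 and GenX2 replicate 2, had the X-inactivation transcript Xist at 5.39 and 4.50 and the Y-linked Eif2s3y at 6.49 and 6.10, which goes against the label female.

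**Figure D1:**
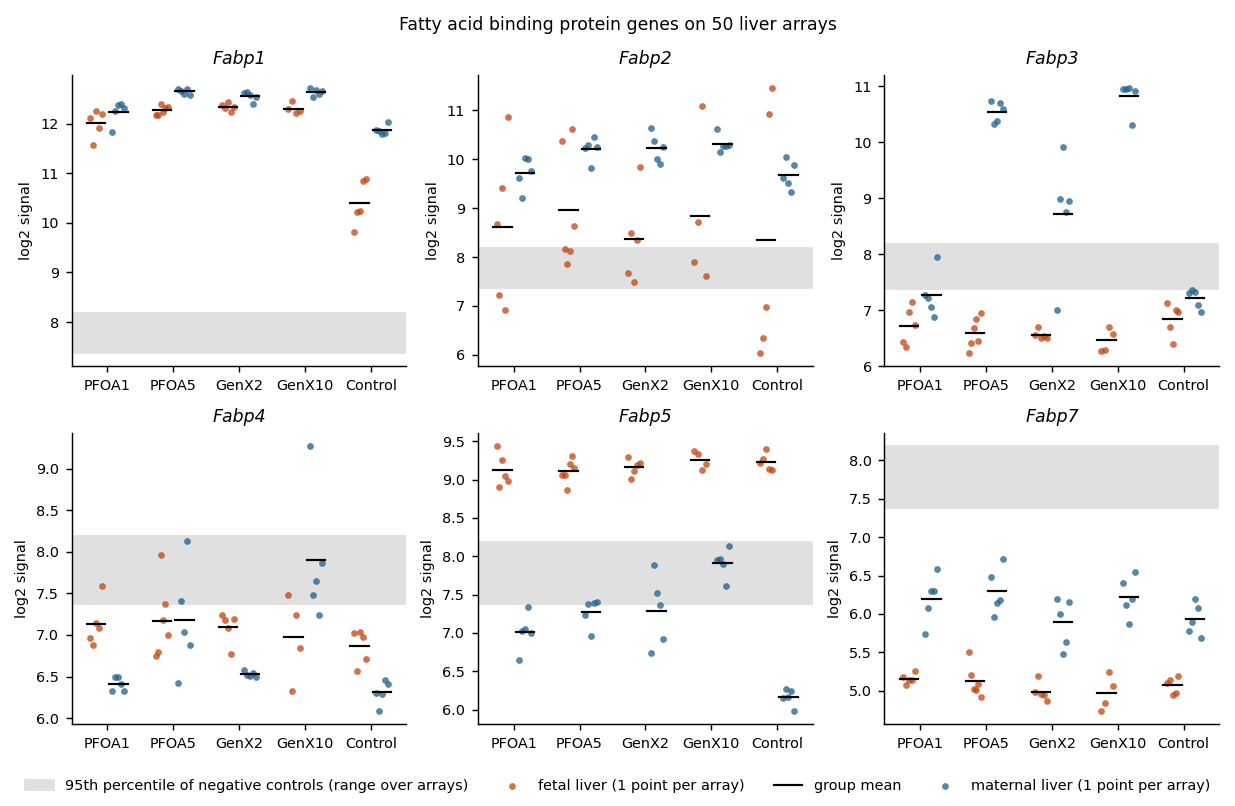
Log2 signal of each fatty acid binding protein gene on every array, by exposure group, with fetal livers in red on the left of each pair and maternal livers in blue on the right. Black bars are group means and the grey band is the range over arrays of the 95th percentile of the negative controls. Fabp1 in fetal controls lay below every other group, Fabp3 rose in maternal liver at the higher doses, and Fabp5 was above the band in fetal liver and mostly below it in maternal liver.

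Fabp1, the liver form, rose in fetal liver under all 4 exposures, and in maternal liver under PFOA5, GenX2 and GenX10. In fetal livers its level was 12.11, 11.58, 12.27, 11.92 and 12.20 with PFOA1, and between 12.18 and 12.40 (median 12.28) on the 6 arrays with PFOA5. It was 12.39, 12.31, 12.43, 12.24 and 12.34 with GenX2 and 12.30, 12.45, 12.22 and 12.26 with GenX10, against 9.82, 10.22, 10.24, 10.85 and 10.88 in fetal controls. No exposed fetal array overlapped the controls. The difference was 1.61 ± 0.15 with PFOA1 (3.06-fold, adjusted p = 8.7e-08), 1.87 ± 0.14 with PFOA5 (3.66-fold, adjusted p = 1.57e-09), 1.94 ± 0.15 with GenX2 (3.84-fold, adjusted p = 1.68e-09) and 1.91 ± 0.15 with GenX10 (3.75-fold, adjusted p = 6.79e-09). Within a compound the doses did not separate: PFOA5 minus PFOA1 was 0.26 (95% interval -0.03 to 0.55), and GenX10 minus GenX2 was -0.04 (-0.36 to 0.28). The 2 fetal control arrays with the highest Fabp1 also carried signal of intestinal genes, described below with Fabp2. Without the 7 fetal arrays that carried it the Fabp1 differences were 1.87, 2.19, 2.25 and 2.24 in the same order of groups, all called. In bulk liver a larger share of cells of a type and more RNA per cell cannot be told apart, here or for the genes below.

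In maternal liver Fabp1 was nearer the top of the signal range already in controls, the highest mean of any gene being 13.55. It was 12.69, 12.67, 12.61, 12.70 and 12.59 with PFOA5, 12.62, 12.64, 12.59, 12.39 and 12.55 with GenX2 and 12.73, 12.54, 12.67, 12.60 and 12.66 with GenX10, against 11.87, 11.86, 11.80, 11.80 and 12.04 in maternal controls. These exposed arrays all lay above the controls. The differences were 0.78 ± 0.08 with PFOA5 (1.71-fold, adjusted p = 1.62e-07), 0.68 ± 0.08 with GenX2 (1.61-fold, adjusted p = 7.82e-06) and 0.76 ± 0.08 with GenX10 (1.70-fold, adjusted p = 2.98e-07). With PFOA1 the 5 arrays read 11.83, 12.25, 12.38, 12.40 and 12.32, and the first of them lay among the controls. That difference, 0.36 ± 0.08, did not pass over 5 arrays (adjusted p = 0.132) and was 0.46 (adjusted p = 9.64e-05) without replicate 1. Maternal PFOA5 exceeded PFOA1 by 0.42 ± 0.08 (adjusted p = 0.00073), whereas GenX10 minus GenX2 was 0.08 (95% interval -0.08 to 0.25).

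The rise of Fabp1 was larger in fetal than in maternal liver under each exposure. The fetal effect minus the maternal effect was 1.25 ± 0.17 for PFOA1 (adjusted p = 2.22e-05), 1.09 ± 0.17 for PFOA5 (adjusted p = 1.66e-05), 1.26 ± 0.17 for GenX2 (adjusted p = 6.43e-06) and 1.14 ± 0.18 for GenX10 (adjusted p = 3.05e-05). Among controls the order of the tissues was the reverse: Fabp1 averaged 10.40 ± 0.45 in fetal controls and 11.87 ± 0.09 in maternal controls (SD, n = 5 each), a difference of -1.47 ± 0.12 (adjusted p = 3.07e-14). The part that closeness to the top of the signal range has in the smaller maternal differences was not tested.

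Ordered by group mean, Fabp1 was highest in maternal PFOA5 (12.65 ± 0.05), GenX10 (12.64 ± 0.07) and GenX2 (12.56 ± 0.10), then in fetal GenX2 (12.34 ± 0.07), GenX10 (12.31 ± 0.10) and PFOA5 (12.27 ± 0.09), in maternal PFOA1 (12.24 ± 0.23) and in fetal PFOA1 (12.02 ± 0.28). Maternal controls followed, and fetal controls were lowest by more than the spread of any group. Neighbours among the 3 highest groups, and among the 4 that came next, differed by no more than the larger of their SDs.

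The 250 bases before the gene's start are shown for Fabp1, which rose in both tissues, and for Fabp2 and Fabp3, which rose in maternal liver. They are RefSeq sequences of the build GRCm38.p6, on the plus strand, and 4 of the 6 genes (these and Fabp7) had an entry. Capitals mark matches to the PPAR response element, which is AGGTCA repeated after 1 base of any kind, with up to 1 mismatch on either strand, and to the TATA box TATAAA on the gene's strand.
Fabp1, chr6:71199629-71199878: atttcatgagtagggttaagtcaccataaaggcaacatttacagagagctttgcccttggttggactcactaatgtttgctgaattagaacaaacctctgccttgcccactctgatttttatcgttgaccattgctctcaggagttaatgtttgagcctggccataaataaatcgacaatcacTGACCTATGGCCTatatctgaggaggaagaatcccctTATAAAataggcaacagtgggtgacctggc
Fabp2, chr3:122894822-122895071: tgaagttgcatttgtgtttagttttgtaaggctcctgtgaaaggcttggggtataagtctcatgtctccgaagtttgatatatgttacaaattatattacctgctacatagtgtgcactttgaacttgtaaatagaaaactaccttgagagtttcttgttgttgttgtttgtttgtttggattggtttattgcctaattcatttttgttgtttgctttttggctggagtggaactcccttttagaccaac
Fabp3, chr4:130308488-130308737: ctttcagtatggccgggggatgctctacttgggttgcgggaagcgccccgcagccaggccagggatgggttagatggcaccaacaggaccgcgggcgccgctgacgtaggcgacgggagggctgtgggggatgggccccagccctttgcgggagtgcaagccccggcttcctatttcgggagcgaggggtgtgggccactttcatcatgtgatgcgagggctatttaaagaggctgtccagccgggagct

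The Fabp1 window held TGACCTATGGCCT, 67 to 55 bases before the start, which read on the other strand is AGGCCATAGGTCA, 1 mismatch from the response element. Of 32851 mouse promoter windows of the same length, 159 (0.484%) held a match this close. A further AGGTCA, read on the other strand, stood 9 to 4 bases before the start and did not overlap it, and 4607 of the windows held an AGGTCA on either strand. A PPAR response element in the proximal promoter is known background for the rat Fabp1 gene. TATAAA stood 30 to 25 bases before the Fabp1 start and in 7.59% of all windows. Neither the response element nor TATAAA was found in the windows of Fabp2, Fabp3 or Fabp7, and AGGTCA was found in that of Fabp7 alone of the 3, on the other strand 171 to 166 bases before the start. No match says only that these letters are not within these bases. The Fabp3 window was 64.8% G and C with 17 CpG, the Fabp1 window 42.8% with 2 and the Fabp2 window 35.6% with 1.

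Fabp3, the muscle form, rose in maternal liver under PFOA5, GenX2 and GenX10 as read from the brighter of its 2 transcript clusters. The level there was 10.73, 10.32, 10.38, 10.69 and 10.60 with PFOA5 and 10.96, 10.95, 10.98, 10.32 and 10.92 with GenX10, against 7.30, 7.37, 7.32, 7.09 and 6.97 in controls, where it was not well above background. No array of either exposed group overlapped the controls. The difference was 3.33 ± 0.31 with PFOA5 (at least 7.64-fold, adjusted p = 4.48e-08) and 3.61 ± 0.31 with GenX10 (at least 9.27-fold, adjusted p = 2.72e-08). With GenX2 the arrays spread widely, at 7.00, 8.99, 9.92, 8.75 and 8.95. The first of these lay among the controls and the other 4 above them, a difference of 1.51 ± 0.31 (at least 2.16-fold, adjusted p = 0.00497) that was 1.94 without replicate 1 and missed the threshold when only GenX2 and control arrays were fitted (adjusted p = 0.0757). With PFOA1 the levels were 7.27, 7.22, 7.06, 6.87 and 7.95, and the difference was 0.06 (95% interval -0.58 to 0.71).

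The doses separated for Fabp3 in maternal liver. PFOA5 exceeded PFOA1, where 1 of 5 arrays was above background, by 3.27 ± 0.31 (adjusted p = 2.21e-07), with no overlap. GenX10 exceeded GenX2 by 2.10 ± 0.31 (4.30-fold, adjusted p = 0.00139), with no overlap. The GenX call was lost when only those groups were fitted (adjusted p = 0.117).

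In fetal liver Fabp3 was not well above background on any of the 25 arrays, at 6.23 to 7.14. The exposed fetal groups differed from the fetal controls by -0.11 to -0.38, none called. The fetal effect minus the maternal effect was -3.57 ± 0.35 for PFOA5 (adjusted p = 1.62e-09), -1.79 ± 0.36 for GenX2 (adjusted p = 0.00336) and -3.99 ± 0.37 for GenX10 (adjusted p = 1.09e-09). The GenX2 call was lost when only the compared groups were fitted (adjusted p = 0.0689). Of 9 measured markers of striated muscle, such as the creatine kinase Ckm, none was above background on any maternal array. Their mean level per array was 6.43 to 6.60 with PFOA5 and 6.41 to 6.58 with GenX10, against 6.63 to 6.70 in maternal controls.

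Fabp3 had 2 transcript clusters on the array and a near-identical pseudogene, Fabp3-ps1. The brighter Fabp3 cluster is the one reported above. The dimmer one averaged 6.63 ± 0.10 with PFOA5 and 6.77 ± 0.06 with GenX10, against 6.90 ± 0.14 in maternal controls (SD, n = 5 each). It was not higher in any exposed maternal group by more than the spread. Its mean was under the lowest background percentile of any array, 7.375, in every group, which limits what change it could show. With both clusters averaged Fabp3 was still called in maternal liver, at 1.53 for PFOA5, 0.69 for GenX2 and 1.74 for GenX10, and the fetal effect minus the maternal effect was -1.63, -0.88 and -1.98 in that order, all called. The cluster of Fabp3-ps1 rose by 3.69 ± 0.35 with PFOA5 and by 4.00 ± 0.35 with GenX10 in maternal liver, with adjusted p = 5.92e-08 and 3.15e-08. Probes of near-identical sequence can bind RNA of either gene, so the array does not separate Fabp3 from its pseudogene, and which of them gave the signal was not tested.

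**Figure D2:**
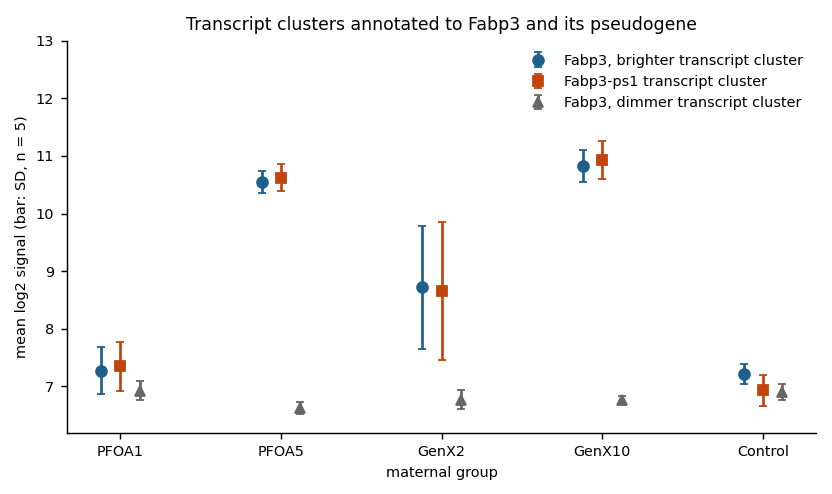
Mean log2 signal in maternal liver of the 2 transcript clusters annotated to Fabp3 and the 1 annotated to its pseudogene Fabp3-ps1, by group. Bars are SD over 5 arrays. The brighter Fabp3 cluster and the pseudogene cluster were both near 7 in controls and above 10 with PFOA5 and GenX10. The dimmer Fabp3 cluster stayed between 6.63 and 6.93, under the background level.

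Fabp5 was called higher in maternal liver under every exposure, mostly from signals under the background level, and in fetal liver under none. Its maternal level was 6.64, 7.03, 7.05, 7.34 and 7.00 with PFOA1, and 7.23, 7.38, 6.96, 7.39 and 7.40 with PFOA5. It was 6.74, 7.88, 7.53, 7.37 and 6.92 with GenX2 and 7.95, 7.97, 7.90, 7.62 and 8.13 with GenX10, against 6.16, 6.26, 6.17, 6.25 and 5.98 in controls. No exposed maternal array overlapped the controls, but these are dim signals: only GenX10 had all 5 arrays above background, PFOA5 and GenX2 had 1 each, and PFOA1 and the controls had none. The differences were 0.85 ± 0.16 with PFOA1 (adjusted p = 0.0452), 1.11 ± 0.16 with PFOA5 (adjusted p = 1.58e-05), 1.12 ± 0.16 with GenX2 (adjusted p = 7.49e-05) and 1.75 ± 0.16 with GenX10 (at least 1.23-fold, adjusted p = 4.02e-08). Leaving out 1 array ended the PFOA1 call in every case except that of PFOA1 replicate 1, with adjusted p between 0.0572 and 0.214 among the calls lost. PFOA5 minus PFOA1 was 0.26 (95% interval -0.06 to 0.58), and GenX10 minus GenX2 was 0.63 (0.30 to 0.95, adjusted p = 0.127), neither of them called. Without GenX2 replicate 2 the second became 0.78 (adjusted p = 0.0225).

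Ordered by group mean, Fabp5 was highest in the 5 fetal groups, whose means of 9.11 to 9.26 differed by less than their spread. Maternal GenX10 came next (7.91 ± 0.19). Maternal GenX2 (7.29 ± 0.46), PFOA5 (7.27 ± 0.19) and PFOA1 (7.01 ± 0.25) lay lower, mostly under the background level. No order is read among those groups. Maternal controls were lowest (6.16 ± 0.11) and not well above background.

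In fetal liver Fabp5 was well above background everywhere, at 8.87 to 9.44 on the 25 arrays. Exposed fetal groups differed from fetal controls by -0.12 to 0.03, none called, with 95% intervals within -0.30 and 0.22. Fabp5 averaged 9.23 ± 0.11 in fetal controls and 6.16 ± 0.11 in maternal controls (SD, n = 5 each), a difference of 3.07 ± 0.13 (at least 3.07-fold, adjusted p = 5.68e-24). The fetal effect minus the maternal effect was -0.95 ± 0.19 for PFOA1 (adjusted p = 0.00664), -1.23 ± 0.18 for PFOA5 (adjusted p = 1.05e-05), -1.19 ± 0.19 for GenX2 (adjusted p = 7.91e-05) and -1.73 ± 0.19 for GenX10 (adjusted p = 3.97e-08). A near-copy, Fabp5l2, named here after its values were seen, is annotated on a cluster of its own, which the array may not separate from Fabp5. In maternal liver it was called with PFOA5 (1.22 ± 0.19, adjusted p = 7.19e-05), GenX2 (1.22 ± 0.19, adjusted p = 0.000337) and GenX10 (1.83 ± 0.19, adjusted p = 3.85e-07). With PFOA1 it was not called (0.82 ± 0.19, adjusted p = 0.187). Its fetal effect minus maternal effect was called for PFOA5, GenX2 and GenX10 and not for PFOA1 (-0.84 ± 0.23, adjusted p = 0.188). Fabp5l2 averaged 9.43 ± 0.15 in fetal controls and 6.38 ± 0.12 in maternal controls (SD, n = 5 each).

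Fabp4, the adipocyte and macrophage form, rose in maternal liver at the higher dose of each compound. Its level was 6.42, 7.41, 7.04, 8.13 and 6.88 with PFOA5 and 9.27, 7.48, 7.65, 7.24 and 7.87 with GenX10, against 6.31, 6.08, 6.29, 6.46 and 6.41 in maternal controls. GenX10 arrays all lay above the controls and PFOA5 replicate 1 lay among them. The differences were 0.86 ± 0.27 with PFOA5 (adjusted p = 0.0258) and 1.59 ± 0.27 with GenX10 (at least 1.22-fold, adjusted p = 0.00022), and 3 of the 5 GenX10 arrays and 1 of the 5 PFOA5 arrays were above background. The PFOA5 call was lost without control replicate 2 (0.81, adjusted p = 0.058), PFOA5 replicate 2 (0.81, adjusted p = 0.0618) or PFOA5 replicate 4 (0.62, adjusted p = 0.0972). With GenX2 the levels were 6.49 to 6.58 and with PFOA1 6.32 to 6.50, differences of 0.22 (95% interval -0.34 to 0.77) and 0.10 (-0.46 to 0.65).

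Fabp4 was higher with GenX10 than with GenX2 by 1.38 ± 0.27 (at least 1.31-fold, adjusted p = 0.0217) and with PFOA5 than with PFOA1 by 0.77 ± 0.27 (adjusted p = 0.0487). The GenX call was lost without GenX2 replicate 2, 4 or 5 (adjusted p of 0.0535 to 0.0619), with only the compared groups fitted (adjusted p = 0.164) and with the replicate number as a block (adjusted p = 0.0626). The PFOA call was lost under both of these settings (adjusted p = 0.0524 and 0.0693) and in 9 of the 10 fits that left out 1 array, and its difference without PFOA5 replicate 4 was 0.53 (adjusted p = 0.168). In fetal liver it read 6.33 to 7.96, above background on 1 of 25 arrays, and no exposure passed (0.10 to 0.31). The fetal effect minus the maternal effect was called for GenX10, at -1.49 ± 0.36 (adjusted p = 0.0138), a call lost without fetal GenX10 replicate 2 (adjusted p = 0.065) or with only the compared groups fitted (adjusted p = 0.0576).

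Markers of the cells known for Fabp4 were read in the same maternal livers. Of 6 measured adipocyte markers, Lipe and Pparg rose with PFOA5 (0.41 ± 0.06 and 0.90 ± 0.14) and with GenX10 (0.41 ± 0.06 and 0.54 ± 0.14). Lipe was above background on 6 of the 25 maternal arrays, and Pparg, Adipoq, Plin1, Lep and Retn on none. Of 12 macrophage and Kupffer cell markers, 5 rose with PFOA5, beside 10.8% of all genes, and 3 with GenX10, beside 7.55%. Among them Cd5l rose by 0.84 ± 0.20 and 0.72 ± 0.20, and C1qb by 0.73 ± 0.23 and 0.71 ± 0.23. The mean of the 12 ran from 7.00 to 7.80 (median 7.74) with PFOA5 and from 7.31 to 7.84 (median 7.47) with GenX10, against 6.80 to 7.58 (median 7.07) in controls. Lipe and Pparg also rose with GenX2 (0.23 ± 0.06 and 0.53 ± 0.14), where Fabp4 was not called and no macrophage marker was. Between the doses of each compound, where Fabp4 was called, 0 of the 12 macrophage markers were called. Of the 6 adipocyte markers 2 were higher with PFOA5 than with PFOA1, beside 10.2% of all genes, and 0 with GenX10 than with GenX2, beside 0.176%. The part of these cells in the Fabp4 result was not tested.

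Fabp2, the intestinal form, rose slightly in maternal liver. Its level was 10.23, 10.29, 9.81, 10.45 and 10.24 with PFOA5 and 10.62, 10.14, 10.28, 10.28 and 10.29 with GenX10, against 9.61, 10.05, 9.52, 9.33 and 9.89 in controls. GenX10 lay above all controls and PFOA5 overlapped them by 1 array. The differences were 0.53 ± 0.16 (1.44-fold, adjusted p = 0.0221) with PFOA5 and 0.64 ± 0.16 (1.56-fold, adjusted p = 0.00905) with GenX10. With GenX2 the arrays read 10.64, 10.38, 10.01, 9.90 and 10.24, and the difference of 0.56 ± 0.16 missed the threshold (adjusted p = 0.0548). With PFOA1 it was 0.04 (95% interval -0.29 to 0.37), and PFOA5 exceeded PFOA1 by 0.48 ± 0.16 (adjusted p = 0.0373). The PFOA5 calls are near the threshold: repeating the quantile normalization gave 0.34 (adjusted p = 0.11) against control and 0.28 (adjusted p = 0.208) against PFOA1. Against control the call was also lost without control replicate 3 (0.49), control replicate 4 (0.44) or PFOA5 replicate 4 (0.47) and stood at the threshold without PFOA5 replicate 2 (0.51, adjusted p = 0.05), and against PFOA1 in 7 of the 10 fits that left out 1 array. The GenX2 difference passed without control replicate 2 (adjusted p = 0.0286) or GenX2 replicate 4 (adjusted p = 0.0206).

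In fetal liver Fabp2 had the widest spread of the 6 genes. Its level was 8.68, 7.23, 9.41, 6.92 and 10.86 with PFOA1 and 7.86 to 10.61 (median 8.40) with PFOA5. It was 7.68, 8.50, 7.48, 8.34 and 9.85 with GenX2 and 7.91, 8.72, 11.09 and 7.62 with GenX10, against 6.04, 6.35, 6.98, 10.92 and 11.46 in fetal controls. Fabp2 was above background on 2 of 5 control arrays, 3 of 5 with PFOA1, 6 of 6 with PFOA5, 3 of 5 with GenX2 and 3 of 4 with GenX10. The groups overlapped and no exposure passed, with differences of 0.02 to 0.61 and SE of 0.93 to 1.03. Against maternal controls the fetal controls were at a difference of -1.33 ± 0.72 (adjusted p = 0.105), which passed without fetal control replicate 4 (-1.97, adjusted p = 0.0178) or 5 (-2.11, adjusted p = 0.00807).

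The high Fabp2 arrays were those with intestinal transcripts. Lct (lactase) or Alpi (intestinal alkaline phosphatase) was above background on 7 fetal arrays: 1 of PFOA1, 2 of PFOA5, 1 of GenX2, 1 of GenX10 and 2 controls. On these 7 Fabp2 was 9.85 to 11.46, Lct 6.67 to 8.71, Alpi 7.77 to 9.25 and the apolipoprotein gene Apoa4 10.01 to 10.94. On the other 18 Fabp2 was 6.04 to 9.41, Lct 4.83 to 6.28, Alpi 5.96 to 7.21 and Apoa4 6.86 to 9.25. The other intestinal markers Cdx1, Cdx2, Sis and Vil1 were above background on no fetal array, though Vil1 was 6.46 to 7.58 on the 7 arrays and 5.55 to 6.47 on the 18. No maternal array had Lct or Alpi above background, whereas Apoa4 was above it on all 25 maternal arrays (9.57 to 11.96) and Cdx2 on 2.

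Leaving out the 7 arrays was a choice made after seeing the data, and no exposure passed the test. The exposed arrays left read 6.92 to 9.41 with PFOA1, 7.86 to 8.64 with PFOA5, 7.48 to 8.50 with GenX2 and, with GenX10, 7.62 to 8.72, all but 1 of them above the 3 fetal controls left, at 6.04 to 6.98. The differences became 1.60 (adjusted p = 0.198), 1.74 (0.053), 1.54 (0.0859) and 1.63 (0.0592) in that order. Of the 4 PFOA1 arrays left, replicates 3 and 1, the highest in Fabp2 (9.41 and 8.68), were also the highest in Lct (6.28 and 5.78), Alpi (7.21 and 6.80) and Apoa4 (9.25 and 8.56). With all 25 arrays and the mean of Lct, Alpi and Vil1 as a covariate, also chosen after seeing the data, they were 0.63 (adjusted p = 0.647), 1.19 (0.0297), 1.31 (0.0202) and 1.29 (0.0213), so that Fabp2 was called for PFOA5, GenX2 and GenX10. Without the 7 arrays the fetal minus maternal control difference of Fabp2 was -3.22 (adjusted p = 2.45e-10). The 3 fetal controls left were under their background percentiles of 7.875 to 7.90, as were some of the exposed arrays left. The sizes of these differences are therefore uncertain. Where the intestinal transcripts came from was not tested.

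**Figure D3:**
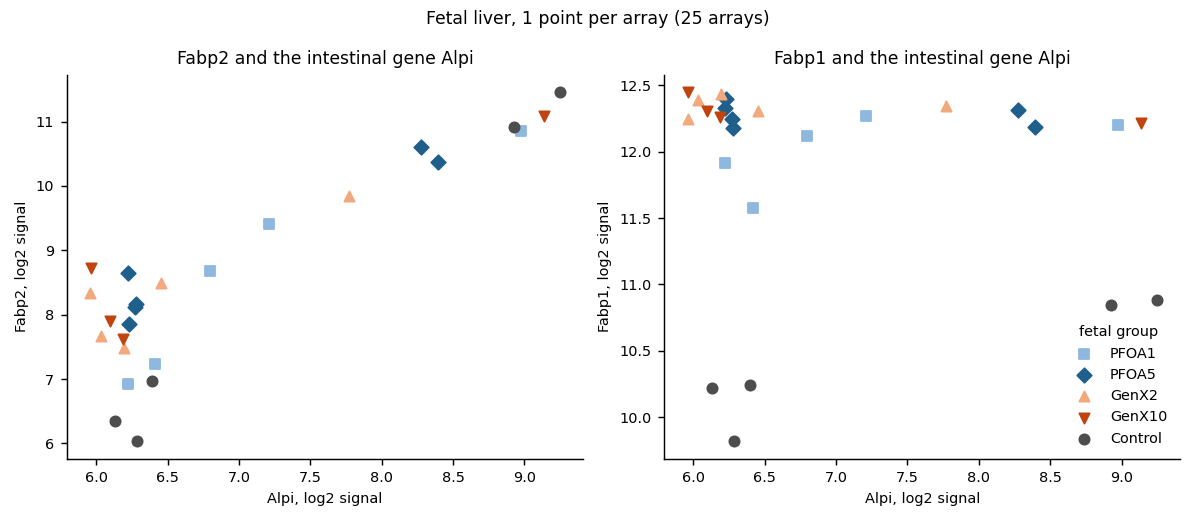
Log2 signal of Fabp2 (left) and Fabp1 (right) against that of the intestinal gene Alpi on the 25 fetal arrays, with a symbol for each group. Arrays with high Alpi had high Fabp2 in exposed groups and controls alike, whereas Fabp1 was 12.18 to 12.34 on the exposed arrays with high Alpi and 10.85 and 10.88 on the 2 control arrays with high Alpi.

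Fabp7, the brain form, was not well above background in any of the 10 groups. It read 4.74 to 5.51 in fetal and 5.48 to 6.71 in maternal livers. The 4 fetal differences lay between -0.10 and 0.09, and the maternal ones were 0.27, 0.37, -0.04 and 0.30 with PFOA1, PFOA5, GenX2 and GenX10, none called. The lower signal in fetal than in maternal controls (-0.86 ± 0.14, adjusted p = 1.43e-06) is a difference of 2 background signals. None of 7 neural and glial markers was above background on any array.

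**Figure D4:**
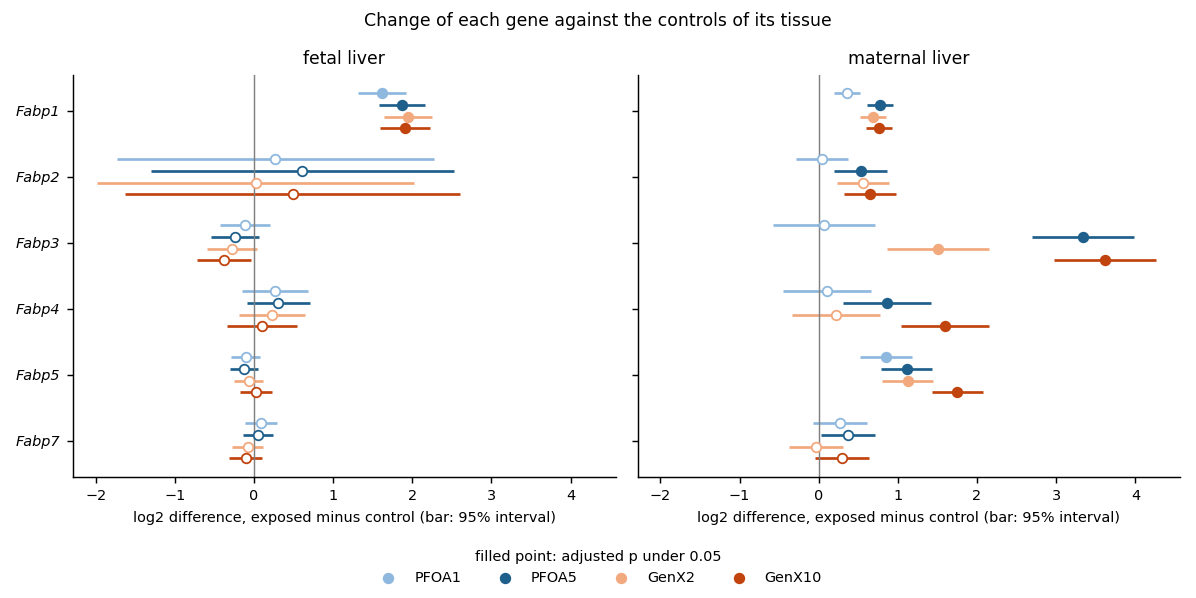
Log2 difference of each gene from the controls of its tissue, fetal liver on the left and maternal liver on the right, with 95% intervals as bars and a colour for each exposure. Filled points are called at an adjusted p under 0.05. In fetal liver only the 4 Fabp1 points are filled, and in maternal liver Fabp3, Fabp5, Fabp1, Fabp4 and Fabp2 have filled points.

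Counted over the 6 genes, 1 was called higher in maternal liver with PFOA1, where 0.0293% of all genes were, 5 with PFOA5 (10.8% of all genes), 3 with GenX2 (2.43%) and 5 with GenX10 (7.55%). None was called lower, beside 0.00325%, 9.04%, 0.937% and 6.22% of all genes in that order. In fetal liver 1 of 6, Fabp1, was called higher in each comparison, beside 0.842% of all genes for PFOA1, 2.34% for PFOA5, 3.90% for GenX2 and 4.42% for GenX10. None was called lower there, beside 0.111%, 1.05%, 2.83% and 4.85% of all genes. Between doses 4 of 6 were higher with PFOA5 than with PFOA1 in maternal liver (10.2% of all genes) and 2 of 6 with GenX10 than with GenX2 (0.176%). In fetal liver no member was called between doses, beside 0.0488% of all genes called for PFOA and 0.00% for GenX. None had an unadjusted p under 0.05 in limma, beside 2623 of the 30743 genes for PFOA and 619 for GenX.

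Between the controls of the tissues Fabp4 and Fabp5 were called higher in fetal liver and Fabp1 and Fabp7 lower, beside 20.0% and 42.2% of all genes. Over all genes the median of this difference was -0.13. Fabp4 was not well above background in either tissue (0.55 ± 0.25, adjusted p = 0.0484), and its call was lost in 8 of the 10 fits that left out 1 control. Of 24 differences of effect between tissues 12 were called. Higher in fetal liver was Fabp1 for each exposure, beside 0.130% of all genes for PFOA1, 1.77% for PFOA5, 0.612% for GenX2 and 0.735% for GenX10. Lower were Fabp5 for PFOA1 (0.0488% of all genes), Fabp3 and Fabp5 for PFOA5 (2.71%) and GenX2 (0.667%), and Fabp3, Fabp4 and Fabp5 for GenX10 (1.30%).

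The genes most like each member in pattern were taken by Pearson's correlation over the 25 arrays of a tissue, as a description. The 25 points share the exposure groups, so a gene that responds to exposure in the same way scores high. Fabp1 was most like Ehhadh (0.98), Hadhb (0.97) and Acaa1b (0.97), enzymes of fatty acid oxidation, in maternal liver, and Vnn1 (0.98), Cyp4a14 (0.98) and Acot1 (0.97) in fetal liver. In maternal liver Fabp3 was most like Fbp2 (0.95), Agpat3 (0.95) and Ecd (0.94), and Fabp5 most like Pltp (0.90), Igfbp2 (0.89) and Ifngr2 (0.88). Fabp4 was most like Adamts14 (0.88), Slc25a4 (0.87) and Pla2g7 (0.86), and Fabp2 most like Etfa (0.89), Aco1 (0.88) and Gatb (0.88).

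Other genes of the same lipid handling were read from lists chosen by name, with earlier results of these data known. Of 19 measured known targets of PPAR alpha in liver, 16, 17, 17 and 17 were higher in fetal liver with PFOA1, PFOA5, GenX2 and GenX10, beside 0.842%, 2.34%, 3.90% and 4.42% of all genes. In maternal liver 2, 18, 17 and 18 were higher, beside 0.0293%, 10.8%, 2.43% and 7.55% of all genes. None was lower. Their median difference was 1.51, 1.79, 1.94 and 2.04 in fetal liver and 0.47, 2.03, 1.01 and 1.53 in maternal liver. The median over all genes was 0.016, -0.015, -0.034 and -0.056 in fetal and 0.0020, -0.054, -0.029 and -0.049 in maternal liver. Ehhadh, a peroxisomal oxidation enzyme, rose by 3.51 ± 0.13 in fetal and 2.24 ± 0.20 in maternal liver with GenX2. Pdk4, a kinase that restrains pyruvate oxidation, rose by 4.75 ± 0.33 in maternal liver with PFOA5.

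Genes that bring fatty acids into the cell or join them to coenzyme A, 15 measured, had 5, 4, 5 and 5 members higher and 0, 1, 2 and 2 lower in fetal liver with PFOA1, PFOA5, GenX2 and GenX10 (medians 0.038, 0.13, -0.074 and -0.083). Over all genes 0.842%, 2.34%, 3.90% and 4.42% were higher and 0.111%, 1.05%, 2.83% and 4.85% lower there. In maternal liver 0, 9, 7 and 9 were higher and none lower (medians 0.081, 0.56, 0.27 and 0.47), beside 0.0293%, 10.8%, 2.43% and 7.55% of all genes higher. Slc27a2, a fatty acid transporter with acyl-CoA synthetase activity, rose by 1.36 ± 0.10 in fetal and 1.03 ± 0.10 in maternal liver with PFOA5. Cd36, a fatty acid translocase, rose by 1.81 ± 0.20 in maternal liver with GenX10. Slc27a5, a bile acid and fatty acid synthetase named after its values were seen, was lower in fetal liver with GenX10 (-1.03 ± 0.15), where it was not well above background in either group.

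Other cytosolic lipid carriers, 10 measured, had 1, 3, 3 and 2 members higher and 0, 1, 1 and 1 lower in fetal liver in the same order of exposures, where 0.842% to 4.42% of all genes were higher and 0.111% to 4.85% lower. In maternal liver 0, 4, 3 and 5 were higher and 0, 1, 0 and 1 lower, where 0.0293% to 10.8% of all genes were higher and 0.00325% to 9.04% lower. Pctp, a phosphatidylcholine carrier, rose by 3.46 ± 0.32 in maternal liver with PFOA5, and Dbi, the acyl-CoA binding protein, rose by 0.74 ± 0.06 in fetal and 0.66 ± 0.06 in maternal liver with GenX10. Ttpa, the alpha-tocopherol carrier, was lower in fetal liver with GenX2 (-0.78 ± 0.12), where it was not well above background.

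The receptors and their partners, 9 measured, had none called in fetal liver by limma, and 0, 3, 3 and 3 members higher and 0, 1, 0 and 1 lower in maternal liver, beside the same shares of all genes. Ppara rose by 0.67 ± 0.13 with GenX2 and 0.57 ± 0.13 with GenX10 in maternal liver. Pparg rose by 0.90 ± 0.14 with PFOA5 in maternal liver, below background in both groups. Of 8 other measured members of the intracellular lipid binding family, none was higher in either tissue. Fabp9 and Fabp12 were lower with PFOA5 in maternal liver (-0.25 ± 0.08 and -0.17 ± 0.06), both below background, beside 9.04% of all genes. In fetal liver Fabp12 (below background) and Rbp2 were lower with PFOA5, and Fabp12 was lower with GenX2 and GenX10, beside 1.05%, 2.83% and 4.85% of all genes. Rbp2, the retinol carrier of the intestine, averaged 8.15 with PFOA5 and 9.44 in controls in fetal liver.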

How the data were processed

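Liver RNA of 50 mice was hybridised to Affymetrix whole-transcript arrays. The deposited values are log2 signals per transcript cluster, made by the authors with robust multi-array averaging (RMA), and the genome build was mm10, per the submitters' processing notes. The sources used here do not give whether RMA ran on all arrays at once. The table held 72688 features, of which 6732 were controls (5222 of them negative controls). Of 32750 annotated probes, 1534 that name several genes were left out, and 30743 genes remained, 364 of them with more than 1 probe and read from the brightest.

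Groups came from sample titles. Each tissue was fitted in 1 model over all its groups with limma 3.58.1 (lmFit and eBayes, R 4.3.3), and tissues were compared in 1 model over all 50 arrays. P-values were adjusted over all genes by Benjamini-Hochberg. The fit was tested on simulated data. Tables and figures were made with Python 3.11.15, pandas 2.3.3 and matplotlib 3.10.9. Correlations between arrays of a group were 0.986 to 0.997, and 4393 to 7488 genes per array were above the 95th percentile of the negative controls.

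The members and gene lists were chosen with earlier results of these data known. All members are described, and at most 3 genes per list and comparison, those of smallest adjusted p, are named, with exceptions stated beside them. Near copies are given beside their member.

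The alternatives were a filter on dim genes, a trend of variance with intensity, median centring, repeated quantile normalization, array weights, only the compared groups in the fit, probes averaged, the replicate number as a block, each replicate left out, and the arrays of conflicting group or sex labels moved or left out. Leaving out fetal arrays with intestinal transcripts, or using those transcripts as a covariate, was added after seeing the data. Maternal and fetal samples are described as matched but pairs are not named. Of 24 maternal and fetal pairs with the same exposure and number, 5 had deviations correlated above 0.1 (median -0.07). Of 101 with the same exposure and different numbers, 32 did (median 0.002), so the numbers were not taken as pairs. Promoter sequences are RefSeq's.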

Additional observations from a re-analysis of the deposited data

Results flagged for a closer look

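In 3 of 60 groups of 4 to 6 arrays a member had an array far from the rest by Dixon's criterion, which chance meets in about 1 of 20 groups. Fabp1 was 12.04 in maternal control replicate 5, with the other controls at 11.80 to 11.87. Fabp1 was 11.83 in maternal PFOA1 replicate 1, with the others at 12.25 to 12.40. Fabp3 was 10.32 in maternal GenX10 replicate 4, with the others at 10.92 to 10.98.

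The effect of an exposure differed between fetal and maternal liver in 12 of 24 tests of the difference itself, each given as fetal minus maternal effect on the log2 scale. For Fabp1 the PFOA1 effect gave 1.25, that of PFOA5 1.09, that of GenX2 1.26 and that of GenX10 1.14. For Fabp5 the PFOA1 effect gave -0.95, that of PFOA5 -1.23, that of GenX2 -1.19 and that of GenX10 -1.73. For Fabp3 it was -3.57 with PFOA5, -1.79 with GenX2 and -3.99 with GenX10. For Fabp4 it was -1.49 with GenX10.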

How the results depend on the processing

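No called member changed direction in any alternative run. Of the values of single members, 1020 kept direction and side of the threshold under alternatives other than leaving out an array, and 39 moved, 10 passed newly and 18 no longer passed. On leaving out 1 array, 1145 kept both, 66 moved, 6 passed newly and 43 no longer passed. Counts of members called were compared with the 6 tested, except with dim genes left out, which removed Fabp7 from every fit. The cause of each other shift was not tested. With only the compared groups fitted, 0 were called for maternal PFOA1, 2 for maternal PFOA5 against PFOA1, 0 for maternal GenX10 against GenX2 and 2 for the GenX2 effect between tissues. For maternal PFOA1 the count was 0 with median centring and 2 with array weights. Between fetal and maternal controls the count was 3 of 5 with dim genes left out (2 higher, 1 lower), where Fabp7 was not tested. It was 3 without arrays of conflicting labels, 3 without arrays of conflicting sex, and 4 without arrays with intestinal transcripts (1 higher, 3 lower). With the intestinal covariate it was 2 for fetal PFOA5, 2 for GenX2 and 2 for GenX10, beside 3.64%, 5.53% and 8.3% of all genes called. With the replicate number as a block, which does not pair these samples, it was 0 for maternal PFOA1, 1 for maternal GenX10 against GenX2 and 3 between fetal and maternal controls. Over all genes, the alternatives other than leaving out 1 array gave 0 to 38 calls for maternal PFOA1. They gave 3169 to 8067 for maternal PFOA5 against PFOA1 and 14 to 78 for maternal GenX10 against GenX2. For the GenX2 effect between tissues the calls were 253 to 521, and between controls of the tissues 6036 to 20216. Leaving out 1 array gave 0 to 2 members called for maternal PFOA1 and 3 to 5 for PFOA5 (3 without PFOA5 replicate 4). It gave 3 to 4 for GenX2, 5 for GenX10 and 1 for each fetal exposure. Over all genes the calls were then 1 to 127, 4385 to 7047, 702 to 2433 and 2364 to 4317 in maternal liver. In fetal liver they were 200 to 315, 777 to 1149, 1310 to 2016 and 1547 to 3991 in the same order of exposures. Members called were 2 to 3 for maternal PFOA5 against PFOA1 and 1 to 2 for maternal GenX10 against GenX2, beside 3637 to 6718 and 35 to 126 of all genes. They were 3 to 5 between controls of the tissues and 3 to 4 for the GenX10 effect, beside 17360 to 19126 and 472 to 610 of all genes. Averaging the probes of Fabp3, of which the dimmer cluster was under the background level, lowered its maternal difference to 1.53 with PFOA5, 0.69 with GenX2 and 1.74 with GenX10. Over all genes, array weights gave 9637 calls for maternal PFOA5 against 6109 in the fit reported and 2621 for maternal GenX2 against 1036. Fitting only the compared groups gave 597 for maternal GenX2. Leaving out dim genes, which tests fewer genes, gave 3512 for maternal PFOA5, 2696 for maternal GenX10 against 4232 and 6036 between controls against 19116. Signals under the background percentile limit what differences could be seen. Such signals were those of Fabp7 in all groups, Fabp3 in fetal liver and maternal controls, and Fabp5 in maternal PFOA1 and controls. Fabp4 was under it in maternal PFOA1, GenX2 and controls and on 24 of 25 fetal arrays. Fabp2 was under it on part of the arrays of every fetal group except PFOA5.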
